A study of Mus musculus with 9 samples.

Results

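Interferon signalling in the PancOVA tumour line of mouse pancreatic cancer was followed through 9 genes: the receptor chains Ifnar1, Ifnar2, Ifngr1 and Ifngr2, the Janus kinases Jak1 and Tyk2, and the transcription factors Stat2, Irf9 and Irf1. They were chosen by name as steps of the route from the interferon receptors to the nucleus, with earlier results of these data known. The gene lists used further below were chosen in the same way, so counts over either are not an independent test. All 9 were found, each in 1 row, among the 41457 genes of the expression table. Tumour cells marked with a proliferation dye had shared matrigel droplets for 48 h with mouse pancreatic stellate cells and were then sorted. Stellate cells are the fibroblasts of the pancreas. In the qPSC group the stellate cells were quiescent and served as the background control. In the myCAF group quiescent cells had been primed for 48 h with TGF-β1 at 2 ng/ml, and in the iCAF group for 48 h with conditioned medium of Tc17 cells, a class of T cells that make interleukin 17. Each group had 3 libraries, all groups shared the same tumour line and culture, and the tumour and stellate cells were each 1 cell line. Levels with qPSC, iCAF or myCAF are levels in tumour cells from that co-culture. The labels do not say that replicates were separate cultures, so p-values cover only differences among these libraries, which may be technical.

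Type I interferons bind a receptor made of the IFNAR1 and IFNAR2 chains, and the kinases TYK2 and JAK1 bound to these chains phosphorylate STAT2 and a partner STAT. Together with IRF9 the STAT pair forms ISGF3, a complex that binds the interferon-stimulated response element (ISRE) of antiviral genes. Interferon gamma binds a receptor of IFNGR1 and IFNGR2 chains, which signals through JAK1 and a further Janus kinase to STAT dimers that bind gamma-activated sites (GAS) and induce Irf1, an activator of antigen presentation genes. Stat2, Irf9 and Irf1 are also targets of interferon themselves.

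The DNA before the start of Stat2 and of Irf1 is shown because the level of Stat2 had the widest and that of Irf1 the narrowest spread of the 9 genes over the libraries (SD of 29.5% and 8.61% of the mean), and because each holds letters of an interferon motif. Both are the 250 bases before the gene start in RefSeq on GRCm38.p6, on the plus strand, at chr10:128270248-128270497 for Stat2 and chr11:53769764-53770013 for Irf1. Capitals mark the motif found in each, written here 5′ to 3′.
Stat2: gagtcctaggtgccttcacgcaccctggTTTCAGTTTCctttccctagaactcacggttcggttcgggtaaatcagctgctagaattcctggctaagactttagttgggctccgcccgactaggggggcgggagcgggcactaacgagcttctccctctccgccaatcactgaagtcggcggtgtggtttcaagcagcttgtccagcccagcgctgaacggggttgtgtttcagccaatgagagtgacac
Irf1: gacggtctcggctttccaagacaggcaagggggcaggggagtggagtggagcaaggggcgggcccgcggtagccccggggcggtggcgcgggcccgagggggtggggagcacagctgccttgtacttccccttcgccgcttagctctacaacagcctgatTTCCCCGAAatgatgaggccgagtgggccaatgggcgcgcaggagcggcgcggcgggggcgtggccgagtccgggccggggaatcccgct
In Stat2 the capitals match the core of the ISRE, GAAANNGAAA with N for any base, read on the minus strand, and begin 222 bases before the start. In Irf1 they match the GAS pattern TTCNNNGAA, which reads the same on both strands, 90 bases before the start. In windows from 250 bases before to 50 after each start, searched on both strands, the ISRE core was found in 1 of the 9 genes and in 3.99% of 27025 RefSeq promoters. The GAS pattern was found in 3 of the 9, Irf1, Ifnar1 and Ifnar2, and in 9.55% of all promoters. A match is a description of the letters and not a test of binding.

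In GENCODE M21 (GRCm38) the receptor genes Ifnar2 (91372783 to 91405589), Ifnar1 (91485238 to 91507441) and Ifngr2 (91547072 to 91565623) lie in this order in a cluster on chromosome 16, all on the plus strand. Stat2 lies on chromosome 10 from 128270559 to 128292849, Irf9 on chromosome 14 from 55603571 to 55610030 and Irf1 on chromosome 11 from 53770014 to 53778374. Irf9 shares 123 bases with Rnf31 on the same strand, a gene at 16.6 to 27.0 TPM, so reads from those bases could be counted for either. The other overlapping neighbours with a value in the table did not exceed 0.514 TPM.

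Levels are in TPM, the share of a transcript in every 1000000, and the steps by which low values rise gave 38870599 to 45317225 implied reads per library. The sorted cells held Krt8 at 744 to 830 TPM and Krt18 at 806 to 956 TPM, keratins of simple epithelia, but the epithelial adhesion genes Epcam and Cdh1 did not exceed 0.0275 TPM. Among 10 leukocyte markers, Ptprc, the pan-leukocyte antigen CD45, did not exceed 0.00376 TPM, and the summed level lay between 5.49 and 7.33 TPM, mostly from Cd68. The summed level of 15 fibroblast markers, of which 12 reached 1 TPM, was 433 to 563 TPM with qPSC, 195 to 409 with iCAF and 428 to 939 with myCAF, while Fap, a marker of activated fibroblasts, did not exceed 0.0504 TPM. One library, iCAF replicate 3, stood apart. Across tested genes its median log2(TPM + 1) was 3.96, where the other 8 had 4.35 to 4.47. Its deviation from each gene's mean over the 9 libraries grew with gene length, from a median of -0.086 for genes with exons of up to 3160 bases to -0.668 for those of 5732 bases or more. Results are therefore given with and without it.

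All 9 genes were expressed in every library, from 567 implied reads for Tyk2 in iCAF replicate 3 to 12665 for Jak1 in myCAF replicate 1. By mean TPM with qPSC, a scale corrected for gene length, the order was Jak1, Irf1, Irf9, Stat2, Ifngr2, Ifnar2, Ifnar1, Ifngr1 and Tyk2. Across the qPSC libraries the values of Irf1 and Irf9, of Irf9 and Stat2, and of Stat2 and Ifngr2 overlapped. Within libraries Irf1 was above Irf9 in 9 of 9, by 1.04 to 1.53 times, and Irf9 above Stat2 in 9 of 9, by 1.01 to 1.81 times. Stat2 was above Ifngr2 in 2 of 9, so that pair had no fixed order. Jak1, the kinase common to both receptors, lay 9.50 to 14.1 times above Tyk2, the kinase of the type I receptor, in each library.

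**Figure D1:**
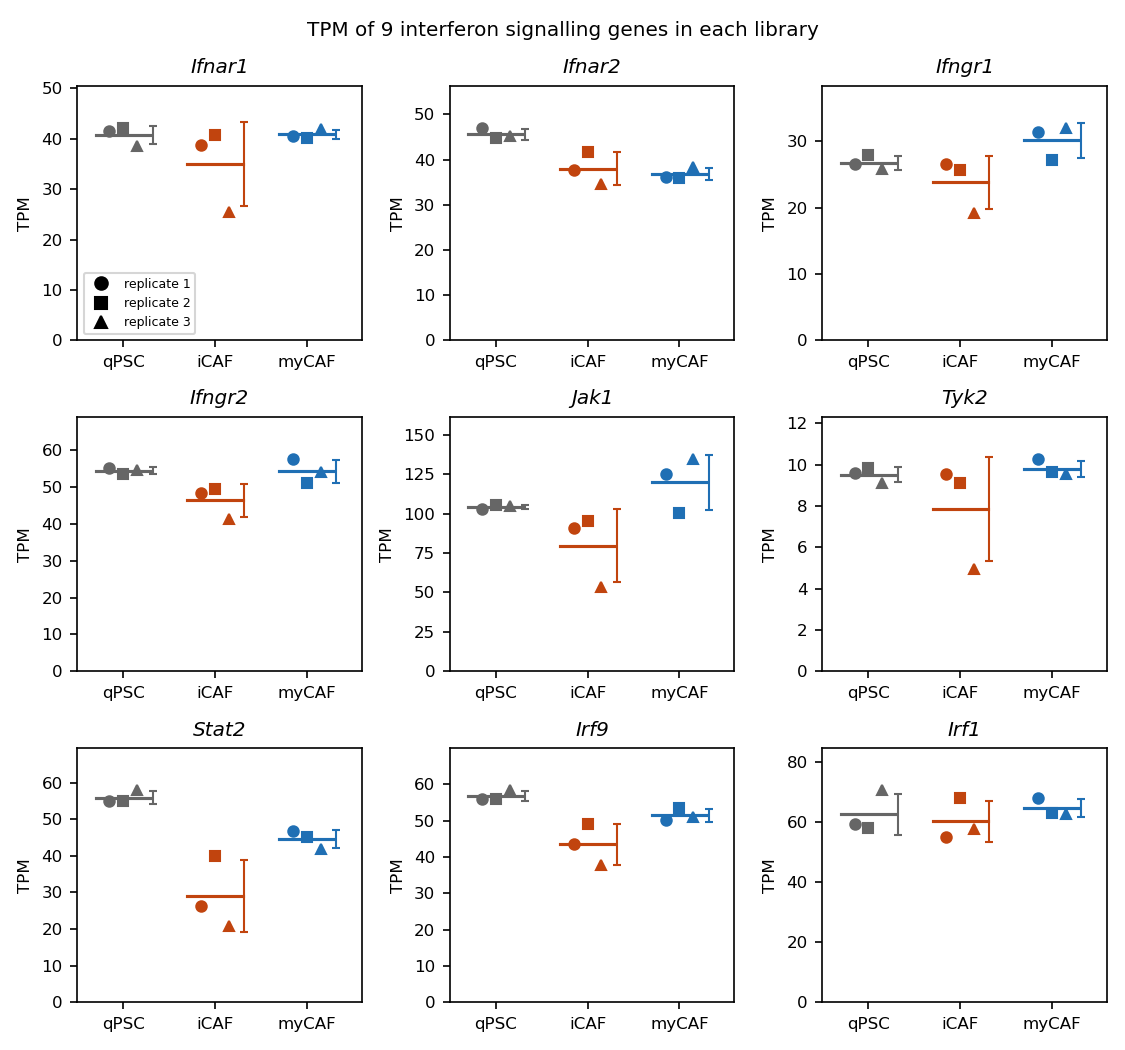
Level of each of the 9 genes in TPM (vertical axis, from 0) in each of the 3 libraries of the qPSC, iCAF and myCAF groups. Horizontal lines are group means and brackets are 1 SD either side. Stat2 lay between 20.9 and 39.9 TPM with iCAF, 42.0 and 46.7 with myCAF and 54.9 and 57.8 with qPSC, with no overlap, while the values of Irf1 overlapped in all groups.

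With all 9 libraries in 1 limma fit, none of the 9 genes passed the threshold of 0.05 on the adjusted p in a comparison. For iCAF versus qPSC 4 of the 9 were lower at an unadjusted p under 0.05, against 13.9% of the 11704 tested genes, for myCAF versus qPSC 1, against 3.77%, and for iCAF versus myCAF 5, against 15.5%. At the adjusted threshold 0.598%, 0% and 0.0598% of all tested genes were lower in the same order, and 0 were higher. The median log2 fold change of the 9 genes was -0.26, 0.01 and -0.25, where the median of all tested genes was -0.15, 0.01 and -0.15. Centring each library on its median, which moved the median of all genes to 0.05, 0.00 and 0.05, left 7, 4 and 7 of the 9 genes negative in place of 9, 4 and 8. It also turned the 1623 lower and 228 higher genes at an unadjusted p under 0.05 for iCAF versus qPSC into 945 lower and 1372 higher. Stat2 came nearest to the threshold and passed it in several of the alternative fits, as did Ifnar2 in the comparison of myCAF with qPSC.

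Stat2, the STAT subunit that carries the main activation domain of ISGF3, separated the 3 groups. It lay at 54.9, 54.9 and 57.8 TPM in the qPSC libraries, at 26.3, 39.9 and 20.9 TPM in iCAF replicates 1 to 3, and at 46.7, 45.2 and 42.0 TPM in the myCAF libraries. Every iCAF value was below every myCAF value, and every myCAF value was below every qPSC value. The group means were 55.9 ± 1.68 TPM with qPSC, 29.0 ± 9.82 with iCAF and 44.6 ± 2.44 with myCAF (SD, n = 3).

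Between iCAF and qPSC libraries Stat2 had a log2 fold change of -0.97 ± 0.19 (SE; 95% interval -1.39 to -0.55), or 1.96-fold lower, and it missed the threshold with all libraries (limma, adjusted p = 0.0629, 97th by p among 11704 genes). Without iCAF replicate 3 it passed at -0.77 ± 0.14, or 1.70-fold lower (limma, adjusted p = 0.0375), where 1.4% of genes were called lower. It also passed without iCAF replicate 2, the highest of the group, at -1.22 (limma, adjusted p = 0.00413; 1.6% of genes called lower), and in limma-voom on the implied reads at -0.83 (adjusted p = 0.0474; 0.326% called lower), but not with centred libraries at -0.77 (limma, adjusted p = 0.0604). It did not pass without iCAF replicate 1 or any 1 of the qPSC or myCAF libraries, and over all alternatives the adjusted p ran from 0.00413 to 0.282. In these bulk libraries, fewer cells of a type and less RNA per cell cannot be told apart. The fibroblast marker sums given above were also lowest in the iCAF libraries, and their part in this result was not tested.

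Between myCAF and qPSC libraries Stat2 had a log2 fold change of -0.32 ± 0.19 (SE; 95% interval -0.74 to 0.10) and did not pass (limma, adjusted p = 1). In a fit of those 6 libraries alone, where 1.9% of all genes were called lower, it passed (limma, adjusted p = 0.0261). For iCAF versus myCAF it was -0.65 ± 0.19, or 1.57-fold lower (95% interval -1.08 to -0.23; limma, adjusted p = 0.172). That difference was -0.45 without iCAF replicate 3 (adjusted p = 0.138) and passed at -0.90 without iCAF replicate 2 (limma, adjusted p = 0.0244; 2.33% called lower).

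Irf9, the DNA-binding subunit of ISGF3, followed the same order in TPM with smaller differences. It lay at 56.0, 56.0 and 58.3 TPM with qPSC, at 43.7, 49.1 and 37.8 TPM with iCAF, and at 50.1, 53.5 and 50.9 TPM with myCAF. The 3 groups did not overlap, with means of 56.8 ± 1.33, 43.5 ± 5.67 and 51.5 ± 1.78 TPM (SD, n = 3). Its log2 fold change was -0.38 ± 0.098 (SE) for iCAF versus qPSC (limma, adjusted p = 0.163), -0.14 ± 0.098 for myCAF versus qPSC (adjusted p = 1) and -0.25 ± 0.098 for iCAF versus myCAF (adjusted p = 0.251). Without iCAF replicate 3 the first of these was -0.29 and did not pass either (limma, adjusted p = 0.0589), while without iCAF replicate 2 it passed (adjusted p = 0.0476). With centred libraries the log2 fold changes were -0.19, -0.14 and -0.04 in the same order (limma, adjusted p = 0.239, 0.724 and 0.709). Most of the difference between iCAF and myCAF was thus gone after centring, and it was -0.06 with the length trend removed.

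Irf1, a transcription factor induced early by interferon gamma, showed no such order. It lay at 59.3, 58.3 and 70.6 TPM with qPSC, at 55.2, 68.1 and 57.9 TPM with iCAF, and at 68.2, 63.2 and 62.9 TPM with myCAF. The groups overlapped in all 3 comparisons, with means of 62.7 ± 6.87, 60.4 ± 6.79 and 64.7 ± 2.98 TPM (SD, n = 3). The log2 fold change for iCAF versus qPSC was -0.05 ± 0.11 (SE), with a 95% interval from -0.29 to 0.18 that leaves out a fold change as large as that of Stat2 (limma, adjusted p = 0.754). For myCAF versus qPSC it was 0.05 (interval -0.19 to 0.29) and for iCAF versus myCAF -0.10 (interval -0.34 to 0.14).

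**Figure D2:**
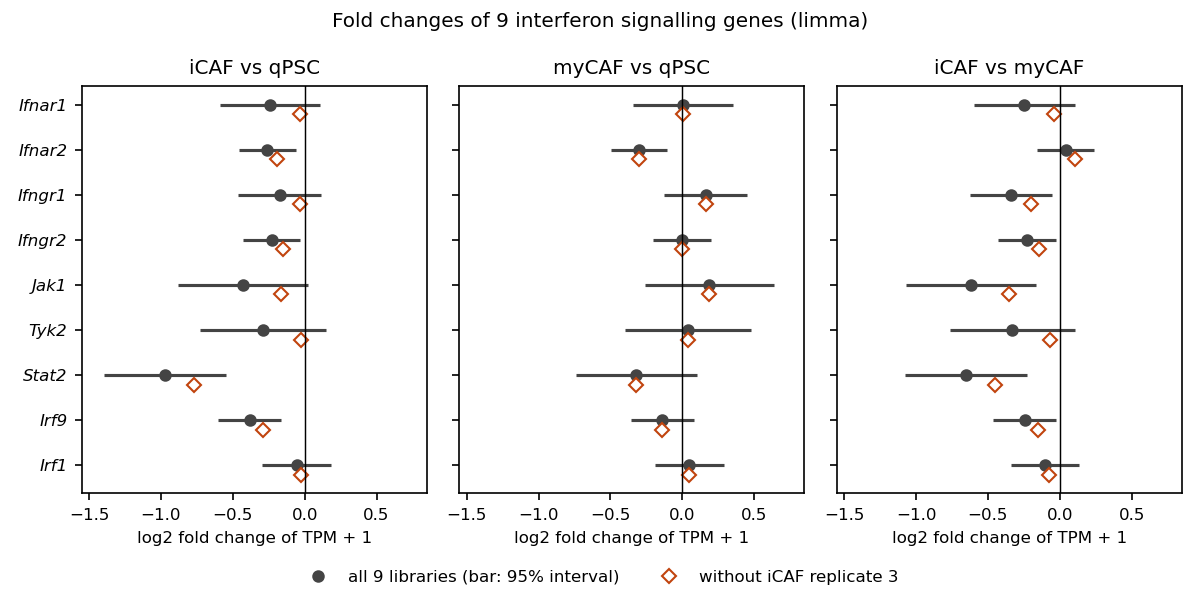
Log2 fold change of TPM + 1 (horizontal axis) for each of the 9 genes in the comparisons iCAF vs qPSC, myCAF vs qPSC and iCAF vs myCAF. Filled circles with bars are the limma estimates from all 9 libraries with 95% intervals, and open diamonds are the estimates without iCAF replicate 3. Stat2 lay farthest from 0 for iCAF vs qPSC, at -0.97 with and -0.77 without that library.

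Stat2 relative to Irf9, the subunits that meet in ISGF3, can be compared within a library, which removes the library total. The ratio was 0.980, 0.981 and 0.992 with qPSC, 0.603, 0.813 and 0.552 with iCAF, and 0.932, 0.845 and 0.825 with myCAF. The 3 groups did not overlap, and the qPSC ratios lay closest together. Means were 0.984 ± 0.00651, 0.656 ± 0.138 and 0.867 ± 0.0569 (SD, n = 3). The log2 differences were -0.61 for iCAF versus qPSC, -0.18 for myCAF versus qPSC and -0.42 for iCAF versus myCAF. In each of these an exact two-sided permutation test gave p = 0.1, the smallest that 3 against 3 libraries allow, and 0.2 after Benjamini-Hochberg adjustment over 12 comparisons of 4 ratios. Leaving out iCAF replicate 3 gave -0.49 for iCAF versus qPSC.

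**Figure D3:**
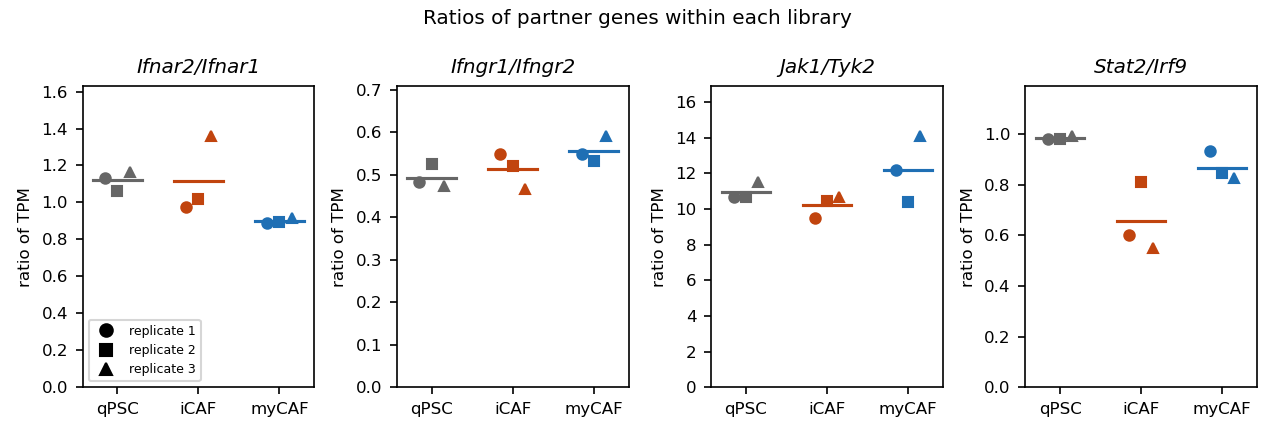
Ratio of TPM between partner genes (vertical axis, from 0) in each library of the qPSC, iCAF and myCAF groups, with horizontal lines at the group means. Stat2/Irf9 was 0.980 to 0.992 with qPSC, 0.825 to 0.932 with myCAF and 0.552 to 0.813 with iCAF, and Ifnar2/Ifnar1 was lower in all 3 myCAF libraries than in any other library.

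Among the type I receptor chains, Ifnar2, which carries the docking sites of the STAT proteins, separated the qPSC libraries from the others. It lay at 46.9, 44.7 and 45.1 TPM with qPSC, at 37.7, 41.7 and 34.5 TPM with iCAF, and at 36.1, 36.0 and 38.4 TPM with myCAF. Each qPSC value was above all iCAF and myCAF values, while iCAF and myCAF overlapped. From qPSC to myCAF its log2 fold change was -0.30 ± 0.088 (SE; 95% interval -0.50 to -0.10), or 1.23-fold lower, which failed with all libraries (limma, adjusted p = 0.368). The same difference passed without iCAF replicate 3, a library of neither group, with an SE of 0.053 in place of 0.088 (limma, adjusted p = 0.0279; 1.8% of genes called lower). It passed too with those 6 libraries alone (adjusted p = 0.0235) but not in limma-voom with all libraries, and the adjusted p over the alternatives ran from 0.0235 to 1. For iCAF versus qPSC it was -0.26 ± 0.088 (limma, adjusted p = 0.277), and -0.20 without iCAF replicate 3 (adjusted p = 0.149). With centred libraries it was -0.06 for iCAF versus qPSC and -0.30 for myCAF versus qPSC (limma, adjusted p = 0.631 and 0.258).

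Ifnar1, the other chain, lay at 41.4, 42.0 and 38.6 TPM with qPSC and at 40.5, 40.1 and 41.9 TPM with myCAF, which overlapped. In iCAF libraries it lay at 38.8, 40.8 and 25.4 TPM, so that replicate 3 alone was low. The log2 fold change for iCAF versus qPSC was -0.24 ± 0.16 (SE; limma, adjusted p = 0.387) and -0.03 ± 0.055 without that library. For myCAF versus qPSC it was 0.01, with a 95% interval from -0.34 to 0.35.

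The ratio of Ifnar2 to Ifnar1 was 1.13, 1.06 and 1.17 with qPSC and 0.891, 0.897 and 0.916 with myCAF, with no overlap. In iCAF it was 0.974, 1.02 and 1.36, and the last of these was replicate 3, where the longer gene Ifnar1 was the lower one. The log2 difference of myCAF from qPSC was -0.31 (exact two-sided permutation test, p = 0.1, the smallest possible, and 0.2 adjusted). For iCAF versus qPSC it was -0.02 with and -0.17 without replicate 3.

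Of the interferon gamma receptor, Ifngr1, the ligand-binding chain, lay at 26.6, 28.0 and 25.8 TPM with qPSC, at 26.5, 25.7 and 19.3 TPM with iCAF, and at 31.4, 27.2 and 31.9 TPM with myCAF. All myCAF values were above all iCAF values, and both groups overlapped with qPSC. The log2 fold change for iCAF versus myCAF was -0.34 ± 0.13 (SE; limma, adjusted p = 0.238), and -0.20 without iCAF replicate 3 (adjusted p = 0.195). With centred libraries it was -0.14 (limma, adjusted p = 0.244).

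Ifngr2, the signal-transducing chain, lay at 55.2, 53.3 and 54.5 TPM with qPSC, at 48.3, 49.4 and 41.3 TPM with iCAF, and at 57.4, 51.1 and 54.1 TPM with myCAF. The iCAF values were below those of both other groups, which overlapped. In log2 its fold change was -0.23 ± 0.090 (SE) for iCAF versus qPSC and also -0.23 ± 0.090 for iCAF versus myCAF (limma, adjusted p = 0.30 and 0.25), and -0.15 in each without iCAF replicate 3. With centred libraries the fold change was -0.033 for iCAF versus qPSC and -0.025 for iCAF versus myCAF (limma, adjusted p = 0.795 and 0.837). The ratio of Ifngr1 to Ifngr2 was 0.493 ± 0.0272 with qPSC, 0.512 ± 0.0417 with iCAF and 0.556 ± 0.0306 with myCAF (SD, n = 3), and for myCAF versus qPSC, which did not overlap, the exact two-sided permutation test gave p = 0.1 (0.2 adjusted).

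Jak1, the highest of the 9 genes in 8 of 9 libraries, lay at 103, 105 and 105 TPM with qPSC, at 90.7, 95.1 and 53.2 TPM with iCAF, and at 125, 100.3 and 134 TPM with myCAF. The iCAF values were below all others, and the myCAF values spread around those of qPSC. The log2 fold change for iCAF versus qPSC was -0.43 ± 0.20 (SE; limma, adjusted p = 0.324) and -0.16 without iCAF replicate 3 (adjusted p = 0.439). For iCAF versus myCAF it was -0.62 ± 0.20, or 1.53-fold lower (limma, adjusted p = 0.198), and -0.35 without iCAF replicate 3 (adjusted p = 0.121). With centred libraries it was -0.23 for iCAF versus qPSC and -0.42 for iCAF versus myCAF (limma, adjusted p = 0.287 and 0.152).

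Tyk2 had the lowest level. It lay at 9.62, 9.83 and 9.11 TPM with qPSC, at 9.54, 9.10 and 4.98 TPM with iCAF, and at 10.26, 9.64 and 9.53 TPM with myCAF. Outside iCAF replicate 3 all groups overlapped. The log2 fold change for iCAF versus qPSC was -0.29 ± 0.19 (SE) with that library and -0.03 ± 0.069 without it (limma, adjusted p = 0.398 and 0.868). The ratio of Jak1 to Tyk2 was 10.96 ± 0.469 with qPSC, 10.2 ± 0.627 with iCAF and 12.2 ± 1.84 with myCAF (SD, n = 3), with exact two-sided permutation p of 0.2 to 0.4 (0.343 to 0.48 adjusted).

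The drop of these genes in iCAF replicate 3 was set beside their length. Relative to the mean of iCAF replicates 1 and 2, that library held 0.534 of the level of Tyk2, 0.572 of Jak1, 0.630 of Stat2 and 0.638 of Ifnar1, whose exons span 5926 to 7227 bases. It held 0.845 of Ifngr2, 0.869 of Ifnar2 and 0.939 of Irf1, with exons of 3329 to 3976 bases. Ifngr1, with the shortest exons at 2847 bases, was at 0.738 and Irf9, at 5386 bases, was at 0.815, so the order was not by length alone. Over all tested genes the median log2 difference ran from 0.177 among the shortest genes (median 1098 bases) to -0.737 among the longest (median 12128 bases). With the length trend removed, a step added after seeing the data, the log2 fold change of Stat2 for iCAF versus qPSC was -0.77 (limma, adjusted p = 0.0275; 0.85% of genes called lower), and no other gene of the 9 passed.

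**Figure D4:**
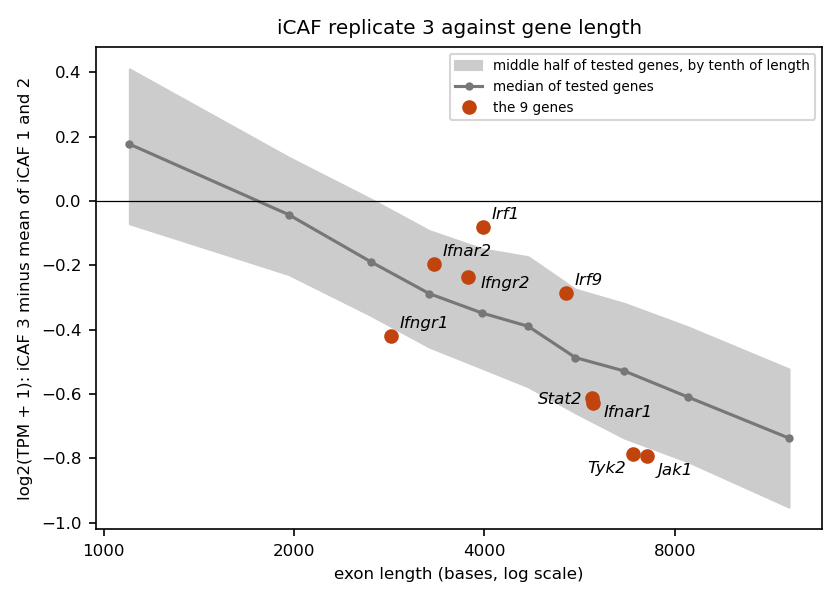
Difference in log2(TPM + 1) between iCAF replicate 3 and the mean of iCAF replicates 1 and 2 (vertical axis) against exon length in bases (horizontal axis, log scale). The grey line and band are the median and the interquartile range of all tested genes in 10 bins of length, and orange points are the 9 genes. Jak1 and Tyk2 lay lowest, at -0.79 each, and Irf1 lay highest, at -0.08.

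Groups that did not overlap were counted over the 9 genes. For iCAF versus qPSC, 5 of the 9 genes (Ifnar2, Ifngr2, Jak1, Stat2 and Irf9) had all iCAF values below all qPSC values, where 23.2% of the tested genes did. The count was also 5 without iCAF replicate 3, where 25.1% of genes did and 14.5% were higher without overlap. For iCAF versus myCAF it was 5 (Ifngr1, Ifngr2, Jak1, Stat2 and Irf9) beside 18.3% of all genes (5 and 20% without iCAF replicate 3, with 13.9% higher), and for myCAF versus qPSC 3 (Ifnar2, Stat2 and Irf9) beside 12.5%. None of the 9 was higher without overlap in any comparison, beside 4.67%, 4.55% and 11.3% of all genes in the same order.

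The genes whose profile over the 9 libraries was nearest to that of Stat2 were Trim30d, C1ra, Ddx60, Trim25 and Nlrc5. The measure was the mean absolute difference of centred log2(TPM + 1) values among 9107 genes with a mean of at least 5 TPM. It ran from 0.065 for Trim30d to 0.120 for Nlrc5, and its median over all genes compared was 0.317. The nearest genes were picked as those with the smallest values, so here and below they lie under the median by choice. Mean levels of Trim30d were 21.2 TPM with qPSC, 15.8 with myCAF and 10.6 with iCAF. Trim25 encodes a ubiquitin ligase of RNA sensing, Ddx60 a helicase of antiviral defence and Nlrc5 an activator of MHC class I genes. Nlrc5 is also on the list of targets of GAS-binding STAT dimers or of IRF1 used below. Functions of C1ra, Trim30d and the genes nearest to Irf9 and Irf1 are not given here, so no shared function is read from these names. For Irf9 the nearest were Hook2, Mfsd13a, Top3b, Armc5 and Ighmbp2 (0.035 to 0.043, against a median of 0.146), and for Irf1 they were Fam69b, Acad8, Ppox, Ccdc112 and Fbxl8 (0.042 to 0.050, against 0.154). Irf9 and Stat2 differed from each other by 0.221 on this measure.

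Several antiviral target genes of ISGF3 were called lower after iCAF co-culture. Of 20 listed target genes, all of which were tested, 9 were called lower and 0 higher for iCAF versus qPSC, beside 0.598% of all genes. The number called lower was 14 without iCAF replicate 3 (beside 1.4% of all genes) and 15 without iCAF replicate 2 (beside 1.6%). With libraries centred on their median it was 6, where 23 of 11704 genes were called lower. The count was 1 without iCAF replicate 1 and 0 without qPSC replicate 1, 2 or 3, fits in which 4 and 0 of all genes were called lower. Their median log2 fold change was -0.87 and all 20 were negative, also with centring, where the median of all genes was 0.05. Rsad2, whose product viperin blocks viral replication, lay at 102 ± 7.68 TPM with iCAF and 259 ± 12.8 TPM with qPSC (SD, n = 3; log2 fold change -1.34 ± 0.13; limma, adjusted p = 0.0112). Mx1 and Mx2, dynamin-like antiviral GTPases, had log2 fold changes of -1.58 ± 0.17 and -1.35 ± 0.16 (SE; limma, adjusted p = 0.0112 and 0.0132) and Ifit1, a binder of foreign RNA, was 2.34-fold lower (adjusted p = 0.0112). With myCAF versus qPSC 0 of the 20 and 0 of all genes were called. The median of the 20 was -0.47 and all 20 were negative, also with centring. Without iCAF replicate 3, 10 were called lower (1.8% of all genes), and without myCAF replicate 2, 5 (18 of 11663 genes). With the length trend removed 3 were called lower (29 of 11646 genes). For iCAF versus myCAF 0 were called, with a median of -0.37 and all 20 negative (16 with centring). Without iCAF replicate 2, 3 were called lower (2.33% of all genes), and without myCAF replicate 2, 1 (279 of 11663 genes). With the length trend removed it was 1 (41 of 11646 genes). The medians of all tested genes were 0.01 and -0.15 in these comparisons. Of the 14 targets with a promoter sequence, 7 held the ISRE core shown above for Stat2 and 3 the GAS pattern.

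Of 17 tested genes listed by name as targets of GAS-binding STAT dimers or of IRF1, 4 were called lower for iCAF versus qPSC. None was called higher, and 0.598% of all genes were called lower. Their median log2 fold change was -0.61, where that of all tested genes was -0.15. The number called lower was 7 without iCAF replicate 3 (beside 1.4% of all genes) and 8 without iCAF replicate 2 (beside 1.6%). It was also 8 without myCAF replicate 2, where 105 of 11663 genes were called lower, and 1 with centring, where 23 of 11704 were. The count was 1 without iCAF replicate 1 (4 of 11678 genes called lower) or myCAF replicate 1 (33 of 11631). It was 2 without myCAF replicate 3 (23 of 11648), and 0 without qPSC replicate 1, 2 or 3, fits in which 0 of all genes were called. Lower levels were found for the chemokine gene Cxcl10 (by 3.43-fold), for Gbp5 and Gbp3, which encode guanylate-binding proteins (by 2.18-fold and 1.83-fold), and for Cd274, which encodes PD-L1 (by 1.82-fold; limma, adjusted p = 0.0112, 0.0268, 0.0424 and 0.0478). For myCAF versus qPSC 0 of these and 0 of all genes were called. Without iCAF replicate 3, 5 were called lower (beside 1.8% of all genes), and without myCAF replicate 2, 2 (beside 18 of 11663 genes). The median was -0.47, where that of all tested genes was 0.01. For iCAF versus myCAF 0 were called, and the median of -0.10 was not below that of all tested genes, -0.15. With centred libraries these medians were 0.10 and 0.05. Cxcl10 was called lower without iCAF replicate 3 (limma, adjusted p = 0.0354; 56 of 11683 genes called lower). In each fit without iCAF replicate 2, myCAF replicate 2 or myCAF replicate 3, 1 gene of the list was called lower. Over all genes 272, 279 and 1 were called lower in these fits. In the 15 of these genes with a promoter sequence, the ISRE core was found in 9 (60%, against 50% of the ISGF3 targets) and the GAS pattern in 4.

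Among 12 tested inhibitors of interferon signalling, 1 was called lower and none higher for iCAF versus qPSC, beside 0.598% and 0% of all genes. This was Usp18, a protease that binds the IFNAR2 chain and blocks signalling. It lay at 85.9 ± 4.40 TPM with iCAF, 111 ± 18.8 with myCAF and 157 ± 4.27 with qPSC (SD, n = 3; iCAF versus qPSC 1.82-fold lower; limma, adjusted p = 0.0146). Of the inhibitors 0 were called with centring, in limma-voom, and without iCAF replicate 1 or any 1 qPSC library. Over all genes 23, 38, 4 and 0 were called lower in those fits. Usp18 is counted among the ISGF3 targets too. Socs1, an inhibitor of JAK kinases, lay at 5.20 ± 0.815 TPM with myCAF and 7.61 ± 1.49 TPM with qPSC and did not pass (limma, adjusted p = 0.568). Of 4 tested other interferon regulatory factors, 1 was called lower for iCAF versus qPSC, beside 0.598% of all genes. This was Irf7, which drives type I interferon genes, at 206 ± 36.1 against 366 ± 11.4 TPM (SD, n = 3; 1.78-fold; limma, adjusted p = 0.0410). Of the 4, 0 were called in limma-voom, with centring, and without iCAF replicate 1, myCAF replicate 1 or 3, or any 1 qPSC library. Over all genes 38, 23, 4, 33, 23 and 0 were called lower in those fits. In myCAF libraries Irf7 lay at 229 ± 37.8 TPM, which passed versus qPSC without iCAF replicate 3 (limma, adjusted p = 0.193 with it and 0.0286 without; 1.8% of genes called lower without it).

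None of 7 tested other Janus kinase and STAT genes and none of 3 tested other class II cytokine receptor genes was called in a comparison with all libraries. Without iCAF replicate 2, 2 of the 7 were called lower for iCAF versus qPSC, beside 1.6% of all genes. Il10rb, the receptor chain gene of the chromosome 16 cluster that is common to interleukin 10 and interferon lambda, lay at 19.5 ± 0.301 TPM with qPSC, 16.5 ± 3.07 with iCAF and 19.0 ± 0.322 with myCAF (SD, n = 3). F3, tissue factor, lay at 8.69 ± 0.967 TPM with qPSC, 5.23 ± 0.857 with iCAF and 7.54 ± 1.29 with myCAF (limma, adjusted p = 0.129 for iCAF versus qPSC). Of 21 interferon genes, 15 were listed at 0 in every library and none reached 1 TPM. The highest were Ifnb1, Ifnz and Ifne, at up to 0.826, 0.824 and 0.616 TPM, and Ifng was above 0 in 1 library, at 0.0620 TPM.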

How the data were processed

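Libraries of the sorted cells came from a stranded mRNA kit and were read from 1 end over 50 bases, per the labels' protocols. The authors deposited TPM values for 41457 genes in 9 libraries, which sum to 1000000 in each. Per the submitters' processing notes Salmon, DESeq2 and R 4.0.1 were used, and their genome build is not given in the sources used here. Because TPM values share a fixed total, genes that take more of it in a library lower all others there. In the same table, 2 columns of the authors' comparisons were not used.

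Symbols were matched to GENCODE M21 (GRCm38), where 98.9% met a single gene model. Multiplied by exon length, 97.81% to 98.05% of values under 200 reads were whole multiples, within 0.05 reads, of 1 step per library. These steps gave the implied reads, used for depth and for limma-voom with TMM scaling. The deposited TPM values were tested as log2(TPM + 1) in 1 limma fit of all 9 libraries that let the prior variance follow the mean level (limma 3.58.1, R 4.3.3). The 11704 genes that reached 1 TPM in 3 or more libraries were tested, with Benjamini-Hochberg adjustment and a threshold of 0.05. Fold changes understate those of low genes. The procedure was tested on simulated data with the same random spread for every gene and library. Those data held no shift like that of iCAF replicate 3, so they do not show how the procedure deals with one. Within groups, r between libraries was 0.98 to 0.997, and they differed beyond sampling noise (chi-square per degree of freedom of at least 8.06). Ratios were compared by exact permutation. All 9 genes were named, with up to 4 called genes per list and comparison or, with none called, up to 2 of the smallest p, and the 5 nearest genes by profile for Stat2, Irf9 and Irf1. For other Janus kinases and STATs counts alone are given. The members and lists were chosen with earlier results of these data known. Promoters came from RefSeq (GRCm38.p6), and Python 3.11.15 with pandas 2.3.3, scipy 1.17.1 and matplotlib 3.10.9 made tables and figures.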

Additional observations from a re-analysis of the deposited data

How the results depend on the processing

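Of 567 values of the 9 genes under alternatives, 529 kept their direction and their side of the threshold, 13 passed it anew and 25 changed sign. For iCAF against qPSC the number of called genes, 70 with all libraries, was 5 with no filter, 24 with median-centred libraries, 30 with only the 6 libraries compared, 22 with the replicate block, 39 with limma-voom and 146 with iCAF replicate 3 left out and limma-voom. It ran from 0 to 194 when 1 library was left out, and genes of the 9 called ran from 0 to 2. Of the 9, 1 was called with limma-voom, with iCAF replicate 3 left out and either centring or limma-voom, and with the gene-length trend removed. For myCAF against qPSC, 0 genes were called with all libraries, 4 with a pseudocount of 5, 1 with no filter, 378 with the 6 libraries compared, 347 and 361 with iCAF replicate 3 left out and centring or limma-voom, and 38 with the length trend removed. Leaving out 1 library gave 0 to 331. Of the 9, 2 were called with the 6 libraries, 1 in both combinations without iCAF replicate 3, and 0 to 1 with 1 library left out. For iCAF against myCAF, 7 genes were called with all libraries and 1 with a pseudocount of 0.1, no filter, no trend or limma-voom. The number was 0 with a pseudocount of 5, centring, the 6 libraries or the replicate block, and 46 with the length trend removed. It was 52 and 64 with iCAF replicate 3 left out and centring or limma-voom, and ran from 0 to 281 with 1 library left out, where 0 to 1 of the 9 was called. The causes were not tested.

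Values that changed sign were up to 0.144 in size. For Irf1 in iCAF against qPSC, 7 of 21 alternatives reversed the main estimate of -0.05, so its direction was not settled. For iCAF against qPSC the log2 fold change became 0.025 for Ifnar1, 0.022 for Ifngr1, 0.030 for Tyk2 and 0.030 for Irf1 without iCAF replicate 3 and centred. It became 0.0024 for Ifnar1, 0.0047 for Tyk2 and 0.0049 for Irf1 without that library in limma-voom. With centring alone it was 0.023 for Ifngr1 and 0.14 for Irf1. Irf1 was at 0.11 in limma-voom and 0.081 with the length trend removed, and ran from -0.14 to 0.032 with 1 library left out. In myCAF against qPSC, Ifnar1 ran from -0.031 to 0.028, Ifngr2 from -0.046 to 0.036 and Irf1 from -0.00067 to 0.14 with 1 library left out, and Ifnar1 was at -0.00049 without iCAF replicate 3 in limma-voom. For iCAF against myCAF, Ifnar1 was at 0.021 and 0.0029 without iCAF replicate 3 with centring or limma-voom, and Ifnar2 ran from -0.028 to 0.11 with 1 library left out. Irf1 was at 0.097 with centring, 0.054 in limma-voom and 0.033 with the length trend removed. The log2 ratio of Ifnar2 to Ifnar1 for iCAF against qPSC ran from -0.17 to 0.073 with 1 library left out.

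Correlations of deviations from group means did not show a pairing of libraries by replicate number, but with 3 libraries a group they cannot exclude one. Over 9 same-numbered pairs they ran from -0.353 to 0.248, 2 were over 0.1, and 1 library correlated best with its own number. With the replicate block, 22, 0 and 0 genes were called in the 3 comparisons and 0 of the 9, and the ratio tests gave p of at least 0.25, the smallest that 3 pairs allow in an exact paired permutation test. Fits that combine leaving out iCAF replicate 3 with another step, and the removal of the length trend, were added after seeing the data.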
